A study of Mus musculus with 48 samples.

Results

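The comparison described here was the mid-night colon against the mid-day colon of control mice, CT17 against CT5. Its members were every control colon library labelled CT17 (4 mice) or CT5 (4 mice), 8 of the 48 libraries in the series, and all genes that passed a filter on low counts were compared. Control mice carried the floxed Bmal1 gene without a Cre transgene (Bmal1fl/fl x Villin wt/wt), and the other genotype, Bmal1IEC-/- (Bmal1fl/fl x Villin CRE/wt), carried in addition a Cre driven by the Villin promoter, which is active in intestinal epithelial cells, so that the other cells of its colon keep Bmal1. All were male C57BL/6J mice of 18 to 20 weeks that had lived in 12 h of light and 12 h of darkness with food at all times, each in its own cage with a running wheel. They were killed during their second day in darkness, at circadian times (CT) 1, 5, 9, 13, 17 and 21 h, where CT0 to CT12 is the subjective day, in which mice rest, and CT12 to CT24 the subjective night, in which they run and eat. RNA of whole colon tissue was sequenced, 1 library per mouse.

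The circadian clock of a cell is a loop of transcription factors. BMAL1 (gene Arntl) with CLOCK or NPAS2 switches on genes that carry an E-box, among them the Period and Cryptochrome genes, whose proteins return to shut BMAL1 and CLOCK off. The same E-boxes drive the REV-ERB genes Nr1d1 and Nr1d2, which silence Arntl and other genes through an element that the ROR factors activate, and Dbp, Tef and Hlf, which act on D-boxes. In the gut this loop runs in epithelial cells and in the tissue around them, and light, food and hormones set its hour.

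Total counts of the 8 mice ran from 3562816 to 4439845, with 5.08 to 5.77% of them from mitochondrial genes. Over the genes tested, mice of the same time correlated at r = 0.972 to 0.978 on the log2 scale. The CT17 mouse SV417 stood nearer to the CT5 mice than the other 3 CT17 mice did: its counts differed from those of the CT5 mice by a chi-square per gene of 4.91 to 6.88, against 7.3 to 12 for the others, while mice of 1 time differed by 2.83 to 7.11. Results that rest on it are therefore also given without it. The mice of CT5 carry the numbers SV442 to SV447 and those of CT17 numbers from SV398 to SV453; what the numbers stand for was not stated, no batch is labelled, and a batch effect between the times was not tested. Values below are normalized counts (counts divided by a size factor of each library, with no correction for gene length, so that levels of different genes are not compared). They are listed in the order SV442, SV443, SV446 and SV447 for CT5 and SV398, SV417, SV438 and SV453 for CT17.

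Between mid-day and mid-night, 1215 of 15073 genes changed by more than 1.5-fold and passed an adjusted p of 0.05 (8.06%; quasi-likelihood test of edgeR, Benjamini-Hochberg adjustment over all genes tested). Of these, 497 (3.3%) were higher at CT17 and 718 (4.76%) were lower, and such genes are called higher and lower below. Clock genes had the smallest p in both directions, many genes of protein folding rose, and every gene of a list of mitosis fell. The median change of all genes was -0.01 on the log2 scale. A fold change above 2 was reached by 139 of the higher and 298 of the lower genes, and one above 4 by 23 and 40. In 980 of the 1215 genes the 4 mice of one time lay wholly above the 4 of the other, a separation that 18.6% of all genes tested showed (night above day in 9.14% and below in 9.42%). Without SV417, 563 genes were higher and 824 lower. Without SV398, also a CT17 mouse, 348 were higher, and the lower genes came to 3.13% of the genes then tested, over 1.5 times fewer.

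**Figure D1:**
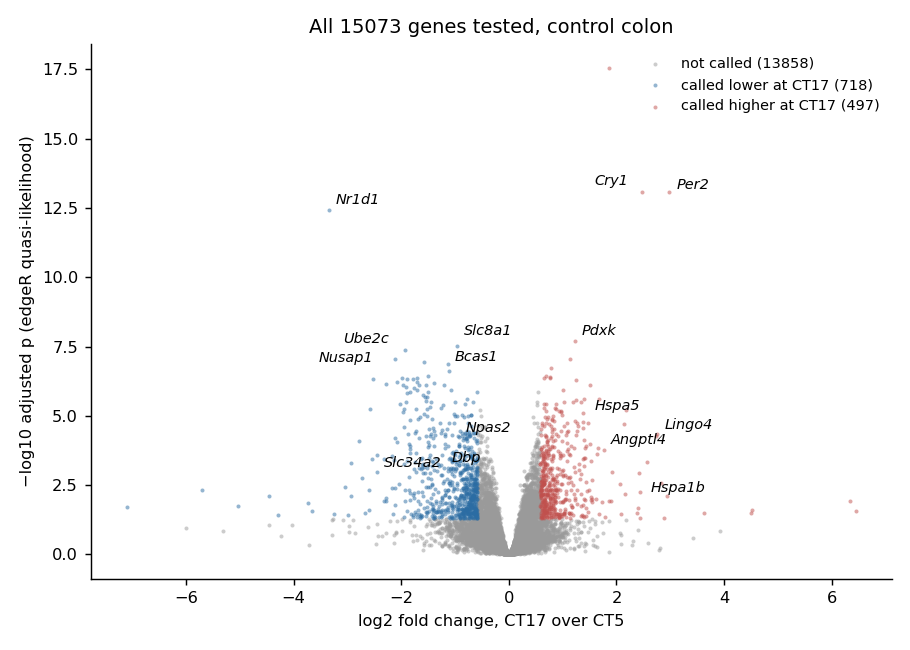
Each point is 1 of the 15073 genes tested in control colon: the x axis is the log2 fold change of CT17 over CT5, the y axis the −log10 of the adjusted p, and colour marks the 497 genes called higher and the 718 called lower. Per2, Cry1 and Nr1d1 are among the genes that stand far above the rest.

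Among the activators of the clock and the genes of their loop, 3 of 7 members tested were higher at night and 1 was lower, beside 3.3% and 4.76% of all genes tested. Cry1 (GRCm38 chr10:85131700-85185064, minus strand), a repressor that acts late in the loop and was listed here with the genes that REV-ERB also silences, was at 26.3, 28.0, 49.5 and 32.1 at CT5 and at 183, 163, 195 and 209 at CT17 (log2 change 2.47 ± 0.18, SE, n = 4 and 4; adjusted p = 8.73e-14). Nfil3, a repressor at D-boxes, was at 25.3, 33.6, 21.5 and 18.5 by day and at 79.6, 63.8, 71.5 and 45.2 by night (log2 change 1.39 ± 0.19, adjusted p = 2.43e-06). For both, each night mouse was above every day mouse.

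Npas2 was the member that fell, from 112, 142, 169.9 and 133 at CT5 to 83.3, 81.9, 70.6 and 56.3 at CT17, without overlap (log2 change -0.93 ± 0.16, adjusted p = 5.98e-05). Arntl itself was at 104, 128, 122 and 144 by day and 89.7, 113, 72.4 and 122 by night, values that overlapped (log2 change -0.34 ± 0.16, adjusted p = 0.13). Over the 6 times its mean ran from 260.0 at CT1 and 252 at CT21 down to 26.4 at CT9 and 30.2 at CT13, so that CT5 and CT17 lie on the falling and on the rising side of its course. Clock (log2 change 0.13 ± 0.17) and Rora (log2 change -0.19 ± 0.13), which encodes a receptor that activates Arntl, did not pass the test either. Rorb was too low to be tested.

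Of the 14 repressors and outputs that E-boxes drive, 6 were higher at night and 3 were lower, beside the same shares of all genes. Per2, a core repressor, had the widest swing of the group upward: 58.7, 65.3, 66.7 and 36.0 at CT5 against 568, 355, 484 and 378 at CT17 (log2 change 2.98 ± 0.21, adjusted p = 8.73e-14). Nr1d1, the gene of REV-ERBα, had the widest swing downward, with 439.4, 406, 536 and 391 at CT5 and 44.9, 41.5, 54.1 and 32.0 at CT17 (log2 change -3.35 ± 0.25, adjusted p = 3.67e-13). The day values of Nr1d1 were thus 10.2 times the night values and those of Per2 0.127 times. Nr1d1 shares part of its locus with Thra on the other strand, whose log2 change was -0.36. Of the 165 genes followed here, 26 overlap another tested gene on the other strand, and whether the counting used strand was not stated.

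Per3 and Cry2 rose by smaller steps than Per2. Per3 was at 149, 116, 115 and 73.0 by day and 239.8, 299, 244 and 257 by night (log2 change 1.19 ± 0.17, adjusted p = 3.19e-06). Cry2 was at 120.5, 183, 169.9 and 132 and at 277, 289, 282 and 236 (log2 change 0.84 ± 0.15, adjusted p = 0.000129). Per1 did not pass the test, at 127, 172, 45.2 and 52.6 against 206, 193, 208 and 86.1 (log2 change 0.80 ± 0.34, adjusted p = 0.0955). The day mice were spread widely and the night mouse SV453 lay among them. Without SV453 the log2 change of Per1 was 1.01 and without the day mouse SV443 it was 1.21, and in both cases it passed (adjusted p = 0.0404 and 0.0199).

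The D-box factors went in different directions. Dbp was lower at night, at 41.2, 38.3, 43.6 and 30.9 against 121, 92.3, 74.2 and 67.2 by day (log2 change -1.20 ± 0.25, adjusted p = 0.000744). Tef was higher, at 523, 488, 569 and 488 against 358, 352, 343 and 276 (log2 change 0.63 ± 0.12, adjusted p = 0.000258), and Hlf was between them without passing the test (log2 change 0.39 ± 0.20). The means over 6 times place the pair: Dbp was highest at CT9 (372) and stood at 125 at CT13, while Tef stood at 1058 and 925. The change of Tef was near the limit of 1.5-fold. It fell under that limit without SV438 or without SV447, when the smallest log2 change was 0.55.

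Nr1d2, the second REV-ERB gene, was at 483, 472, 547 and 447.9 by day and 341, 301, 305 and 303 by night (log2 change -0.64 ± 0.16, adjusted p = 0.00309), and without SV446 its change of -0.58 was under the fold limit. Usp2, a deubiquitinase with a clock-driven rhythm in many tissues, was at 101, 76.5, 37.6 and 56.5 and 265, 181, 228 and 201 (log2 change 1.68 ± 0.23, adjusted p = 2.43e-06). Wee1, the kinase that holds CDK1 inactive before mitosis, was at 68.8, 64.3, 73.1 and 65.2 by day and 118, 105, 119 and 135 by night without overlap (log2 change 0.81 ± 0.13, adjusted p = 1.45e-05). The log2 changes of Ciart (-0.10), Bhlhe40 (0.39) and Bhlhe41 (-0.29), 3 further repressors of BMAL1 and CLOCK, did not pass the test.

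**Figure D2:**
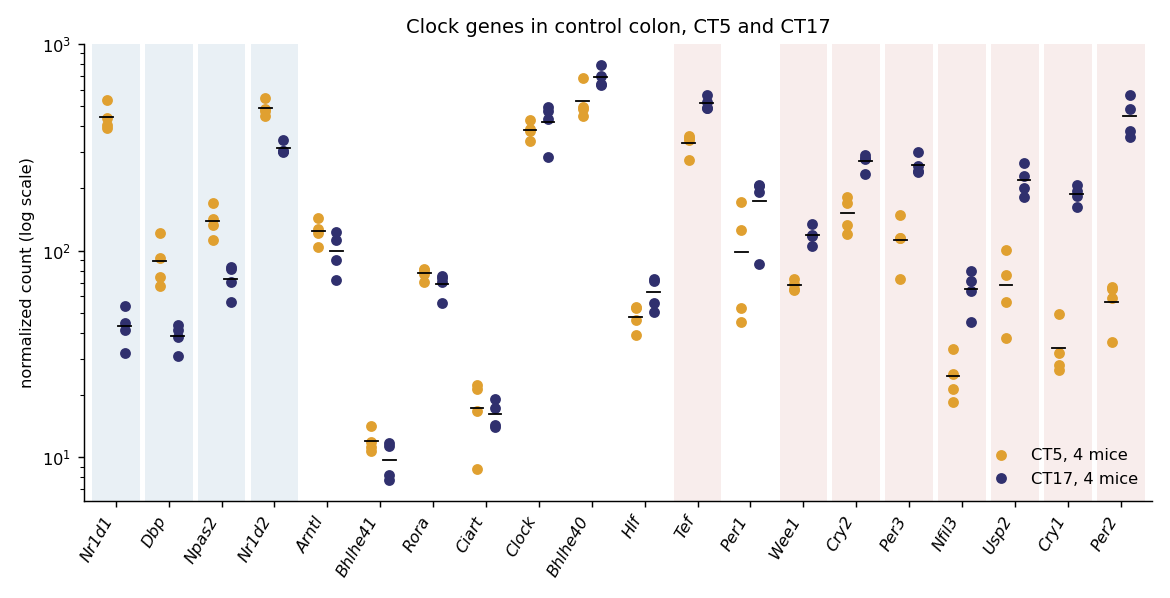
Normalized counts (log axis) of 20 clock genes, ordered by their log2 change, with 1 point for each of the 4 mice at CT5 and the 4 at CT17 and a bar at each mean. Blue shading marks the 4 genes called lower at CT17 and red the 8 called higher, and in these 12 the mice of the 2 times do not overlap.

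Promoter sequence is shown for 3 clock genes that rose at night, each with a different clock element. Sequences are from RefSeq on GRCm38.p6, 5′ to 3′ on the strand of the gene, taken from the 250 bases before its start; capitals mark the match. The Cry1 stretch (chr10:85185072-85185151, minus strand) holds an E-box, CACGTG. The Per3 stretch (chr4:151044827-151044906, minus strand) holds a D-box, TTATGTAA, the one of its 2 matches shown. The Nfil3 stretch (chr13:52981040-52981119, minus strand) holds the element that REV-ERB and ROR share, TAGGTCA, on the opposite strand.
Cry1: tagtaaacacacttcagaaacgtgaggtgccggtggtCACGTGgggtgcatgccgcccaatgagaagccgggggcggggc
Per3: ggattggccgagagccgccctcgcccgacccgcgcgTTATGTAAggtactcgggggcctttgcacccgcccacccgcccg
Nfil3: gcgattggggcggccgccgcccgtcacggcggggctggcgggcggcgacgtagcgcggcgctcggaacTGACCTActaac
Of the clock genes with a promoter in the RefSeq table, searched on both strands from 250 bases before to 50 after the start, Cry1 held the E-box among the 6 activator and loop genes, and Per1, Tef, Ciart and Bhlhe41 held it among the 11 repressors and outputs. The D-box (TTATGTAA or TTACGTAA) was found in Per3 alone of the 17, and the REV-ERB and ROR element (TAGGTCA or TGGGTCA) in Arntl and Nfil3. Of all 32851 promoters, 7.15% held the E-box, 1.06% the D-box and 6.45% the REV-ERB and ROR element. Counting a gene if any of its promoters matched, 12.6% of 350 higher and 6.57% of 533 lower genes held the E-box, beside 11.3% of the 11111 genes tested that have a promoter. Of these 11111 genes, 0.855% held the D-box and 6.18% the REV-ERB and ROR element.

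Cell division was the group with the most uniform change. All 24 members of the mitosis list were lower at CT17, beside 4.76% of all genes tested, with a median log2 change of -1.54 and a range from -2.12 to -0.62. In each of the 24, the 4 night mice were below the 4 day mice. Their summed normalized counts were 3853 to 4672 in the CT5 mice and 1255 to 1793 in the CT17 mice. When any 1 mouse was left out, at least 23 stayed lower, the exception being Plk1 without SV453. In bulk tissue, fewer cells in mitosis and less of these transcripts per cell cannot be told apart.

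Mki67, the proliferation marker Ki-67, was at 798, 741, 824 and 886 by day and 219.7, 357, 185 and 377 by night (log2 change -1.53 ± 0.22, adjusted p = 5.51e-06). Ccnb1, cyclin B1, the partner that CDK1 needs to enter mitosis, was at 119, 101, 179.6 and 134 and 39.4, 41.5, 36.6 and 40.8 (log2 change -1.76 ± 0.23, adjusted p = 9.73e-07). Ube2c, which tags cyclins for destruction at the end of mitosis, was at 107, 113, 124 and 106 and 21.97, 27.7, 34.0 and 34.2 (log2 change -1.94 ± 0.21, adjusted p = 4.31e-08). The day values of these 3 genes were 2.88, 3.38 and 3.83 times the night values.

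The spindle and cytokinesis genes behaved alike. Nusap1, a protein of spindle microtubules, which overlaps Oip5 (log2 change -1.70) on the other strand, had the largest change of the list, from 135, 139.9, 174 and 116 by day to 28.4, 53.2, 20.1 and 29.8 by night (log2 change -2.12 ± 0.24, adjusted p = 8.63e-08). Cenpf of the kinetochore (log2 change -1.97 ± 0.26), the topoisomerase Top2a (-1.50 ± 0.20), Ccnb2 (-1.89 ± 0.24) and the kinase gene Cdk1 (-1.42 ± 0.22) were lower too. Plk1, a mitotic kinase, changed least, at 394.8, 363, 400.1 and 361 against 268, 239, 258 and 225 (log2 change -0.62 ± 0.11). It overlaps Gm44985 (log2 change -0.45) on the other strand, and whether reads of that gene were counted for Plk1 was not tested. Racgap1 (-1.57 ± 0.18), Kif23 (-1.50 ± 0.19), Spag5 (-1.71 ± 0.21) and Iqgap3 (-1.98 ± 0.25), which act at the spindle or at the cleavage furrow, were with Ube2c and Nusap1 among the 10 lower genes of smallest p.

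Genes of DNA replication did not share this change. Of 25 members tested, 5 were higher at CT17, beside 3.3% of all genes, and none was lower, with a median log2 change of 0.20. Mcm2, a subunit of the helicase that opens the double strand at origins, was at 83.0, 65.3, 59.2 and 73.0 by day and 142, 126, 151 and 108 by night (log2 change 0.91 ± 0.17, adjusted p = 0.000192). Mcm3 (log2 change 0.79 ± 0.21) and Mcm6 (0.60 ± 0.15), from the same helicase, Cdt1 (0.64 ± 0.23), which loads it, and E2f1 (0.74 ± 0.26), the factor that turns on S-phase genes, were the other 4. Mcm7 (log2 change 0.12 ± 0.14) and the ribonucleotide reductase subunit Rrm2 (-0.19 ± 0.22) did not pass the test. These steps were small, and the count of 5 fell to 2 without SV417 and without SV443. Mcm6 lost its call without SV417, SV443 or SV446, Cdt1 without 6 of the 8 mice and E2f1 without 4, with log2 changes down to 0.52, 0.47 and 0.57.

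Promoters of mitotic genes often carry the cell cycle homology region, TTTGAA or TTCGAA, through which they are kept silent outside the G2 and M phases. A search for it was added after the values had been seen. Ube2c (chr2:164769849-164769928, plus strand) and Ccnb2 (chr9:70421679-70421758, minus strand) are shown as 2 members that fell, with the match in capitals.
Ube2c: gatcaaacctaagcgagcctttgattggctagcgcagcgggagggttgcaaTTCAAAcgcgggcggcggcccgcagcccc
Ccnb2: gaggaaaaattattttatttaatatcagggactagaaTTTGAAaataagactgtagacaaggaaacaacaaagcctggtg
The Ube2c promoter holds it on the opposite strand, and for Ccnb2 1 of 2 matches is shown. The region was found in 16 of the 20 mitosis genes with a promoter and in 4 of the 20 replication genes. It was found in 16.5% of all genes tested with a promoter, in 30.8% of those called lower and in 14.9% of those called higher. A match is a description of the letters and not of binding.

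The list with the most members that rose was that of heat shock genes, most of which encode chaperones. Of 26 heat shock and cold-inducible genes tested, 16 were higher at CT17 and 1 was lower, beside 3.3% and 4.76% of all genes tested, with a median log2 change of 0.75. Their summed normalized counts were 15110 to 16642 in the CT5 mice and 21232 to 32564 in the CT17 mice. The lowest night sum belonged to SV417 and the next to SV438, at 27435. Without SV417, 17 were higher, and without SV398, 13.

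Hsph1, a nucleotide exchange factor of HSP70, was at 215, 198, 146 and 130.5 by day and 897, 411.7, 685 and 1065 by night (log2 change 2.14 ± 0.34, adjusted p = 1.9e-05). Hsp90aa1, the inducible cytosolic HSP90, was at 766, 723, 712 and 762 and 2243, 1418, 1494 and 2566 (log2 change 1.38 ± 0.22, adjusted p = 1.63e-05). Hspa8, the constitutive HSP70, was at 4240.1, 4222, 3652 and 3844 and 8378, 5191, 9389 and 10638 (log2 change 1.07 ± 0.18, adjusted p = 4.92e-05). No night mouse overlapped the day mice in these 3 genes, and in each SV417 was the lowest of the night.

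The co-chaperones Stip1 (log2 change 1.10 ± 0.18), Fkbp4 (0.81 ± 0.13) and Dnaja1 (0.82) and the second cytosolic HSP90, Hsp90ab1 (0.78 ± 0.13), rose as well. The inducible HSP70 genes are near-identical copies, and the authors counted only reads that reached a limit of mapping quality. Reads that match both copies may therefore not have been counted, so each value is uncertain. Hspa1b was at 9.11, 24.2, 20.4 and 13.6 by day and 138, 19.1, 90.7 and 118 by night (log2 change 2.43 ± 0.63, adjusted p = 0.00554), with SV417 inside the range of the day. Hspa1a was at 4.05, 11.2, 11.8 and 4.87 and 50.3, 7.45, 34.9 and 43.0 (log2 change 2.08 ± 0.70, adjusted p = 0.0338), and its adjusted p rose to as much as 0.12 when 1 mouse was left out. Dnajb1, another gene of the heat shock response, was not among those that rose, at 196, 176, 190.4 and 143 against 212, 148, 221 and 173 (log2 change 0.10 ± 0.16), nor was Hsf1, the factor that governs it (log2 change 0.30 ± 0.12, adjusted p = 0.0672).

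The cold-inducible pair pointed the other way. Cirbp, an RNA-binding protein that cells make more of as temperature drops, was at 206, 219, 244 and 214 by day and 77.8, 147, 111 and 116 by night, without overlap (log2 change -0.98 ± 0.21, adjusted p = 0.000774). Rbm3, its relative, was at 662, 618, 679 and 689 and 373, 504.2, 480.5 and 414 (log2 change -0.58 ± 0.13, adjusted p = 0.0009), a difference that passed the test on p and missed the fold limit.

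The heat shock element, the site of HSF1, was searched for as the short core GAANNTTC, and a match describes the letters and not binding. A match was found in 11 of the 19 genes of the heat shock list with a promoter. Of all genes tested with a promoter 7.04% held it, of the higher genes 8.0% and of the lower genes 7.32%. Hspa1b (chr17:34959299-34959378, minus strand), Dnaja1 (chr4:40722308-40722387, plus strand) and Hspe1 (chr1:55088028-55088107, plus strand), the mitochondrial co-chaperonin (log2 change 0.67), are shown because they held it upstream of the start and rose at night.
Hspa1b: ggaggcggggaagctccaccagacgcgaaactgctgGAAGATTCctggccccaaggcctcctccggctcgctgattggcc
Dnaja1: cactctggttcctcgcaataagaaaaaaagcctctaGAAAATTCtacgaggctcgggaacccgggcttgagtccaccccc
Hspe1: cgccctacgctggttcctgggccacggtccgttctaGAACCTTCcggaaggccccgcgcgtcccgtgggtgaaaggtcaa

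Chaperones of the endoplasmic reticulum rose too: 9 of 27 members of the list of ER stress and secretion were higher at CT17, beside 3.3% of all genes tested, none was lower, and the median log2 change was 0.47. Hspa5, which encodes BiP, the HSP70 of this compartment, was at 1417, 1375, 1507 and 1643 by day and 4582, 2901, 3191 and 4893 by night (log2 change 1.38 ± 0.21, adjusted p = 8.04e-06). Hyou1, its nucleotide exchange factor, was at 355, 336, 330.2 and 338 and 1226, 697, 969 and 976 (log2 change 1.51 ± 0.20, adjusted p = 7.44e-07). Creld2, an ER protein induced by misfolding, was at 126, 97.0, 78.5 and 88.6 and 304, 170.2, 227 and 248 (log2 change 1.28 ± 0.21, adjusted p = 2.37e-05). In these 3 genes the night mice lay above the day mice, and SV417 was again the lowest of the night.

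Sdf2l1 (log2 change 1.22 ± 0.22), Manf (1.08 ± 0.18), the disulfide isomerase Pdia4 (1.02 ± 0.15), calreticulin (Calr, 0.75 ± 0.14), Hsp90b1 (0.71 ± 0.13) and Syvn1 (0.80), a ligase of ER-associated degradation, made up the rest of the 9. The regulators of the response were not among them. Xbp1 was at 1225, 1200.2, 1305 and 1403 by day and 1393, 1362, 1295 and 1615 by night (log2 change 0.14 ± 0.07), Atf4 had a log2 change of -0.14 ± 0.07, and Ddit3, which encodes CHOP, one of 0.04 ± 0.20. The ER group held its count when 1 mouse was left out, with 9 or 10 members higher each time.

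The ER stress element, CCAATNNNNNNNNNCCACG, was also searched for after the values had been seen. It was present in 8 of the 24 genes of the list with a promoter (Hspa5, Hsp90b1, Calr, Canx, Pdia6, Creld2, Dnajc3 and Syvn1) and in 19 of the 11111 genes tested with a promoter, or 0.171%. Of the higher genes with a promoter 6 of 350 held it, of the lower genes 0 of 533. Hspa5 (chr2:34771994-34772073, plus strand) and Creld2 (chr15:88819489-88819568, plus strand, element on the opposite strand) are shown with it in capitals.
Hspa5: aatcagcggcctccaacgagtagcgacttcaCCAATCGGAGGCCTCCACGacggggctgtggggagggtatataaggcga
Creld2: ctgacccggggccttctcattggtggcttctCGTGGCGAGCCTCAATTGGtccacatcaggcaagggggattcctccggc

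**Figure D3:**
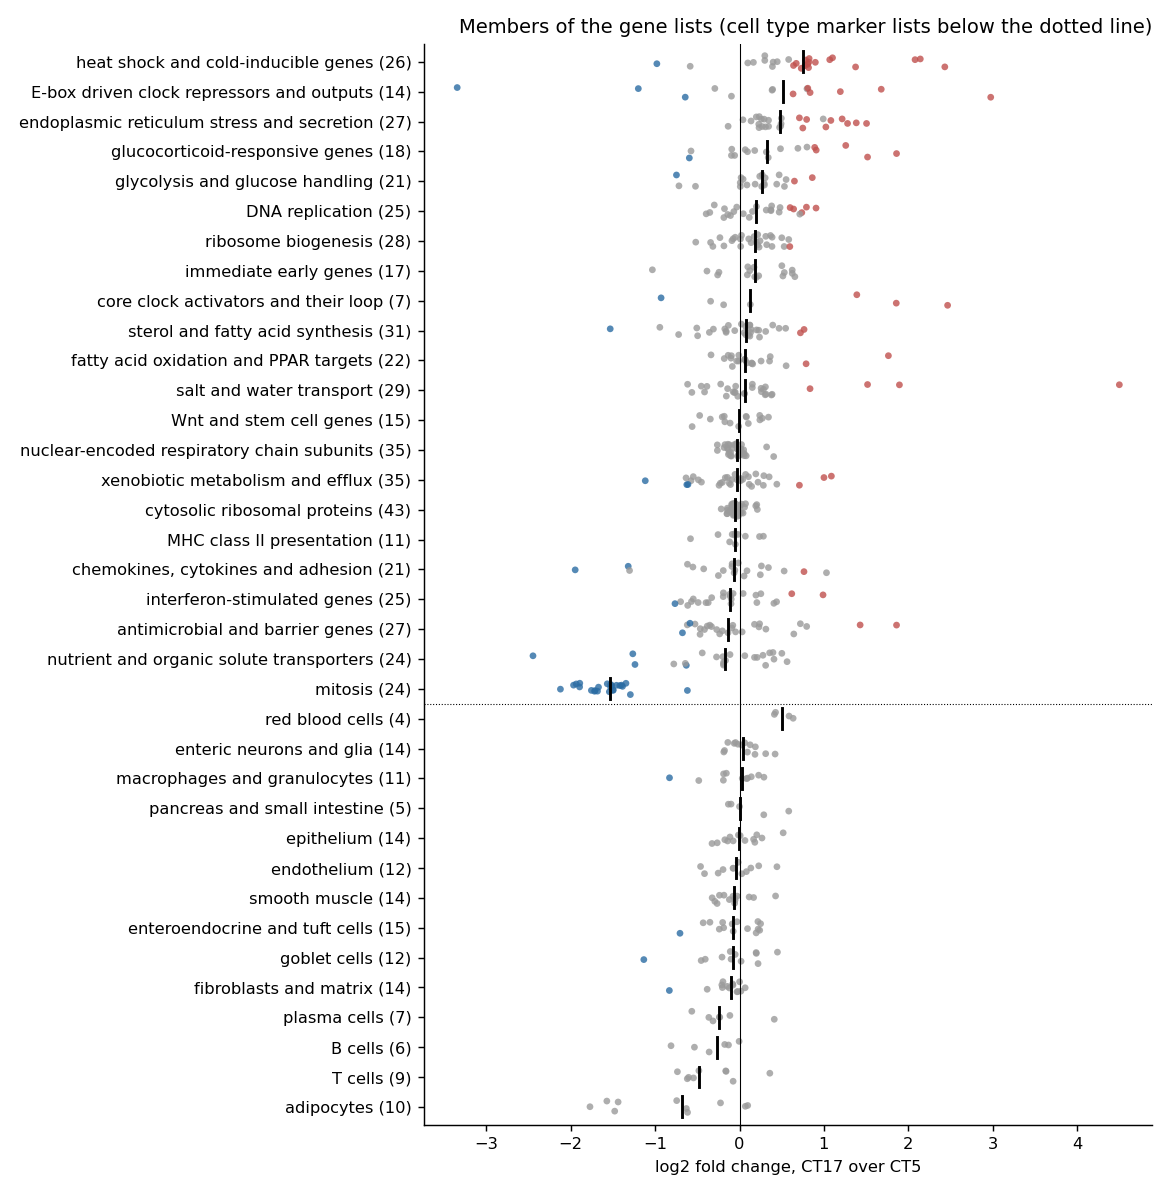
The log2 fold change of CT17 over CT5 (x axis) for each member of 36 gene lists, with the number of members tested in brackets and a black bar at the median. Points in red are called higher and in blue lower; mitosis lies wholly to the left at a median of -1.54, heat shock genes have the highest median among the lists above the dotted line, 0.75, and cell type markers lie below that line.

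Each of 3 lists of metabolic genes had 2 higher members. In glycolysis 2 of 21 were higher and 1 was lower (14.3% called, beside 8.06% of all genes tested). Pgk1, phosphoglycerate kinase, was at 951, 946, 895 and 879 by day and 1419.7, 1453, 1399.7 and 1512 by night (log2 change 0.65 ± 0.08, adjusted p = 4.45e-07). Pdk1, the kinase that keeps pyruvate out of the mitochondria, fell from 242, 269.5, 267 and 324 to 139, 205, 166 and 150.1 (log2 change -0.75 ± 0.12, adjusted p = 3.72e-05). Tpi1 (log2 change 0.53 ± 0.08), Ldha (0.44 ± 0.07) and Eno1 (0.47 ± 0.10) passed the test on p with folds under 1.5.

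Of 22 genes of fatty acid oxidation and PPAR targets, 2 were higher and none was lower (9.09% called, near the 8.06% of all genes tested). Angptl4, a secreted inhibitor of lipoprotein lipase, was among the higher genes, at 23.3, 27.0, 24.7 and 30.2 by day and 114, 75.5, 89.8 and 80.5 by night (log2 change 1.76 ± 0.33, adjusted p = 0.000166). In sterol and fatty acid synthesis 2 of 31 were higher, Dhcr7, the last enzyme of one route to cholesterol (log2 change 0.76 ± 0.10, adjusted p = 4.28e-07), and Scd2 (0.72 ± 0.19). One member of that list was lower, so that 9.68% were called, also near the 8.06% of all genes tested.

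Of 29 salt and water genes 4 were higher (13.8%, beside 3.3% of all genes tested) and none was lower. Sgk1, the kinase through which aldosterone and glucocorticoids raise sodium uptake, was at 383, 447.6, 249.5 and 370.0 by day and 1432, 936, 895 and 907 by night (log2 change 1.52 ± 0.27, adjusted p = 0.000102). Hsd11b2, which shields the aldosterone receptor from glucocorticoids, was at 494, 479.3, 342 and 368 and 771, 636, 925 and 679.6 (log2 change 0.84 ± 0.14, adjusted p = 3.1e-05). Atp12a, the colonic proton and potassium pump, rose from 2.02, 1.87, 5.38 and 3.89 to 12.8, 7.45, 13.95 and 15.4 (log2 change 1.89 ± 0.54, adjusted p = 0.0122).

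Scnn1g, a subunit of the epithelial sodium channel, rested on few reads: 0 in every CT5 mouse and 2, 0, 6 and 3 in the CT17 mice. Against a floor of 3 counts over the 4 CT5 mice, its night level was 3.61-fold higher. This figure allows for counting error at CT5 only, and not for the spread between mice. The adjusted p of Scnn1g (0.0316) rose to as much as 0.108 when 1 mouse was left out, and the call was lost without any 1 of 6 of the 8 mice. The other 2 subunits of the channel, Scnn1a (log2 change -0.06) and Scnn1b (-0.05), did not pass the test.

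Of 24 nutrient and solute transporters, 4 were lower at night (16.7%, beside 4.76% of all genes tested) and none was higher, although 2 were called higher without SV438. Slc34a2, a sodium-phosphate cotransporter, was at 61.8, 77.4, 79.6 and 95.4 by day and 7.32, 25.5, 7.85 and 18.8 by night (log2 change -2.45 ± 0.53, adjusted p = 0.00109). Slc40a1, ferroportin, the iron exporter, was at 1414, 1806, 1883 and 2143 and 564, 999, 743 and 725 (log2 change -1.26 ± 0.19, adjusted p = 5.38e-06). Slc15a1, the peptide transporter PEPT1, was at 24.3, 26.1, 32.3 and 39.9 and 10.1, 13.8, 15.7 and 12.1 (log2 change -1.24 ± 0.28, adjusted p = 0.00134). All 3 had the night mice below the day mice. Slc7a8, an amino acid exchanger, had overlapping values (log2 change -0.63 ± 0.20, adjusted p = 0.026) and lost its call without any of 4 mice, with an adjusted p of up to 0.118.

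Of 35 xenobiotic genes 3 were higher and 3 were lower, 8.57% in each direction beside 3.3% and 4.76% of all genes tested. Ces1d, a carboxylesterase, was at 661, 933, 811 and 763 by day and 1386, 1611, 1815 and 1551 by night (log2 change 1.001 ± 0.13, adjusted p = 1.18e-06). Por, which feeds electrons to all microsomal P450 enzymes (log2 change 0.71 ± 0.13), and the P450 gene Cyp4b1 (1.09 ± 0.20) were also higher. Nqo1 (-0.61 ± 0.13), Cyp2s1 (-0.62 ± 0.15) and the efflux pump Abcc2 (-1.12 ± 0.33) were lower. None of these 3 kept its call without SV398, where the log2 changes were -0.52, -0.58 and -0.93. Abcc2 missed there on its adjusted p in edgeR (0.0755) and not on the fold. Nqo1 also lost its call without SV447, and Cyp2s1 without SV438 or SV453.

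Among 18 genes known to respond to glucocorticoids, 5 were higher and 1 was lower (27.8% and 5.56%, beside 3.3% and 4.76% of all genes tested). Tsc22d3, which encodes GILZ, was at 102, 115, 80.7 and 84.7 by day and 266, 251, 225 and 177 by night (log2 change 1.26 ± 0.21, adjusted p = 3.43e-05). Fkbp5, a co-chaperone that dampens the glucocorticoid receptor, was at 749, 662, 474 and 531 and 1567, 862, 1129 and 932 (log2 change 0.89 ± 0.23, adjusted p = 0.00469). Sgk1 is a member too, and Lcn2 and Cebpd, the other 2, are low genes: Lcn2 had 11 reads in all CT5 mice and 42 in all CT17 mice, Cebpd 31 and 60. Lcn2 lost its call without SV447 (adjusted p = 0.0582 in edgeR). Cebpd lost it without any of 5 mice, SV417 among them, with an adjusted p of up to 0.0966. Dusp1 (log2 change 0.18 ± 0.23) and Klf9 (-0.06 ± 0.11) did not pass the test. Cdkn1a, the cell cycle inhibitor p21, was the member that fell (log2 change -0.60 ± 0.15, adjusted p = 0.00402), with overlapping values. Leaving out 1 mouse gave 3 to 7 higher members, the 3 without SV447 and the 7 without SV453, and Cdkn1a lost its call without any of 4 mice, with a log2 change of -0.47 at the least.

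Immune and barrier genes changed in both directions. Of 27 antimicrobial and barrier genes 2 were higher and 2 were lower (14.8% called, beside 8.06% of all genes tested). Cldn2, the claudin that forms a channel for small cations, was at 1212, 1632, 1137 and 1419 by day and 4208, 2781, 3632 and 3974 by night (log2 change 1.43 ± 0.26, adjusted p = 0.00012). Lcn2 (log2 change 1.86 ± 0.53), the other higher gene, lost its call without SV447. The defensin Defb37 (-0.68 ± 0.19) and Tlr2 (-0.59 ± 0.16), a receptor for bacterial lipoproteins, were lower, though Tlr2 lost its call without SV398, SV446 or SV447, with a log2 change down to -0.46. Of 25 interferon-stimulated genes 12% were called: Mx1 (0.99 ± 0.21) and Rsad2 (0.62 ± 0.19) were higher and Xaf1 (-0.77 ± 0.26) was lower. Of 21 chemokines, cytokines and adhesion genes 14.3% were called: Il33 (0.76 ± 0.22) was higher and Tslp (-1.32 ± 0.42) and Cxcl9 (-1.95 ± 0.70) were lower, on 37 and 15 reads in all for Tslp and 43 and 11 for Cxcl9. Rsad2, Xaf1, Tslp and Cxcl9 each lost the call without any of at least 4 of the 8 mice, with adjusted p values of up to 0.132, 0.136, 0.0895 and 0.189.

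In 5 lists edgeR called 0 members, and DESeq2 called 0 as well. An unadjusted p under 0.05 was found in 5 of 15 genes of Wnt signalling and stem cells, 1 of 11 of MHC class II presentation, 3 of 17 immediate early genes, 1 of 43 cytosolic ribosomal proteins and 7 of 35 nuclear-encoded respiratory chain subunits. At an adjusted p under 0.05 and any fold, the lists held 1, 1, 0, 0 and 1 such genes in the same order, beside 2675 of all 15073 genes tested. The share of all genes at the unadjusted threshold is not given, so the unadjusted counts are only a description. Of 28 ribosome biogenesis genes 1 was higher (3.57%, beside 3.3% of all genes tested), Utp4 (log2 change 0.60 ± 0.16). Utp4 lost its call without any of 4 mice (log2 change down to 0.53). Lgr5, the stem cell receptor, was at 58.7, 62.5, 41.9 and 54.5 by day and 30.2, 48.9, 31.4 and 38.6 by night (log2 change -0.56 ± 0.27, adjusted p = 0.149). For ribosomal proteins the log2 changes ran from -0.22 to 0.21.

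Of 147 markers of the cell types that colon tissue can hold, 4 were lower, beside 4.76% of all genes tested, and none was higher. The median log2 change of 14 epithelial markers was -0.003, with none called and a summed level of 77103 to 93741 at CT5 and 75528 to 85731 at CT17. Smooth muscle (14 markers), endothelium (12), enteric neurons and glia (14), T cells (9), B cells (6), plasma cells (7), adipocytes (10), red blood cells (4) and pancreas or small intestine (5) had no member called either. Over these 10 lists, 16 of 95 markers had an unadjusted p under 0.05 in edgeR, and DESeq2 called 1. An adjusted p under 0.05 at any fold was found for 2 markers of epithelium, 3 of smooth muscle and 3 of endothelium. It was found for 1 of plasma cells and 1 of pancreas or small intestine, and for none in the rest of these lists. Of all 15073 genes tested, 2675 passed that threshold. The calls among markers included Bcas1 of the goblet cell list (449.5, 335, 348 and 373 by day and 145, 197, 179.7 and 168 by night, log2 change -1.13 ± 0.13, adjusted p = 1.39e-07), Col3a1 of the fibroblast list (-0.83 ± 0.14, adjusted p = 6.07e-05) and Cx3cr1 of the macrophage list (-0.83 ± 0.21, adjusted p = 0.00397), all of them lower at CT17. For Cx3cr1 the mice of the 2 times overlapped, and its log2 change ran from -1.18 to -0.60 when 1 mouse was left out. Its locus also overlaps other tested genes, among them Wdr48 on the other strand. Of 15 markers of enteroendocrine and tuft cells 1 was lower. In the goblet cell, fibroblast and macrophage lists the other 11, 13 and 10 markers were not called, among them Muc2 (log2 change 0.02), the mucin that defines goblet cells, and Col1a1 (-0.20). The lowest medians belonged to adipocytes at -0.69 (summed level 762 to 1757 at CT5 and 638 to 1181 at CT17) and T cells at -0.48 (103 to 159 and 97.9 to 136), and both ranges overlapped. Their part in the other results was not tested.

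Beyond the lists, the higher genes of smallest p included Pdxk, pyridoxal kinase, which makes active vitamin B6, at 95.2, 112, 90.3 and 101 by day and 251, 209.6, 235 and 241 by night (log2 change 1.22 ± 0.13, adjusted p = 1.96e-08), Slc46a3, a lysosomal transporter (1.13 ± 0.13, adjusted p = 8.63e-08) and Mpi, mannose phosphate isomerase (0.76 ± 0.09, adjusted p = 3.92e-07). The lower ones were Slc8a1, a sodium-calcium exchanger, at 755, 732, 723 and 889.9 by day and 329, 437.2, 362 and 474 by night (log2 change -0.96 ± 0.10, adjusted p = 2.99e-08), and Tmem117, a membrane protein (-1.11 ± 0.13, adjusted p = 2.33e-07). In each of these 5 genes the times did not overlap.

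Placing CT5 and CT17 in the day as a whole, the 24 control mice showed that the pair lay near the extremes for many of the called genes and beside them for others. Of the 497 higher genes, the highest of the 6 control means was at CT17 for 48.7%, at CT13 for 33.6% and at CT21 for 16.5%, and the lowest was at CT5 for 41.4%, at CT1 for 36.6% and at CT9 for 20.3%. Of the 718 lower genes, the highest mean was at CT1 for 47.1%, at CT5 for 33.4% and at CT9 for 18.9%, and the lowest at CT17 for 55.2%, at CT13 for 32.9% and at CT21 for 10.6%. The choice of the genes fixes in part that CT5 and CT17 lie at opposite ends, so these shares are a description.

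Single genes had their own hours. Per2 was highest at CT13 (784 ± 159, SD, n = 4) and stood at 446.3 ± 98.3 at CT17. The chaperones Hspa8 and Hsph1 were also highest at CT13, at 12409.9 and 1748 against 8399 and 765 at CT17, and by CT21 Hspa8 was back at 3742, below its CT5 mean of 3989. Hspa5 of the ER was highest at CT17 (3892) and still stood at 2966 at CT21. Mki67 fell from 981 at CT1 to 285 at CT17 and was at 468.7 at CT21, whereas Mcm2 was at its 2 highest means at CT17 (132) and CT21 (129.7). Sgk1 held 1257, 1042 and 981 through the 3 night times and 344, 362 and 381 through the 3 day times.

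**Figure D4:**
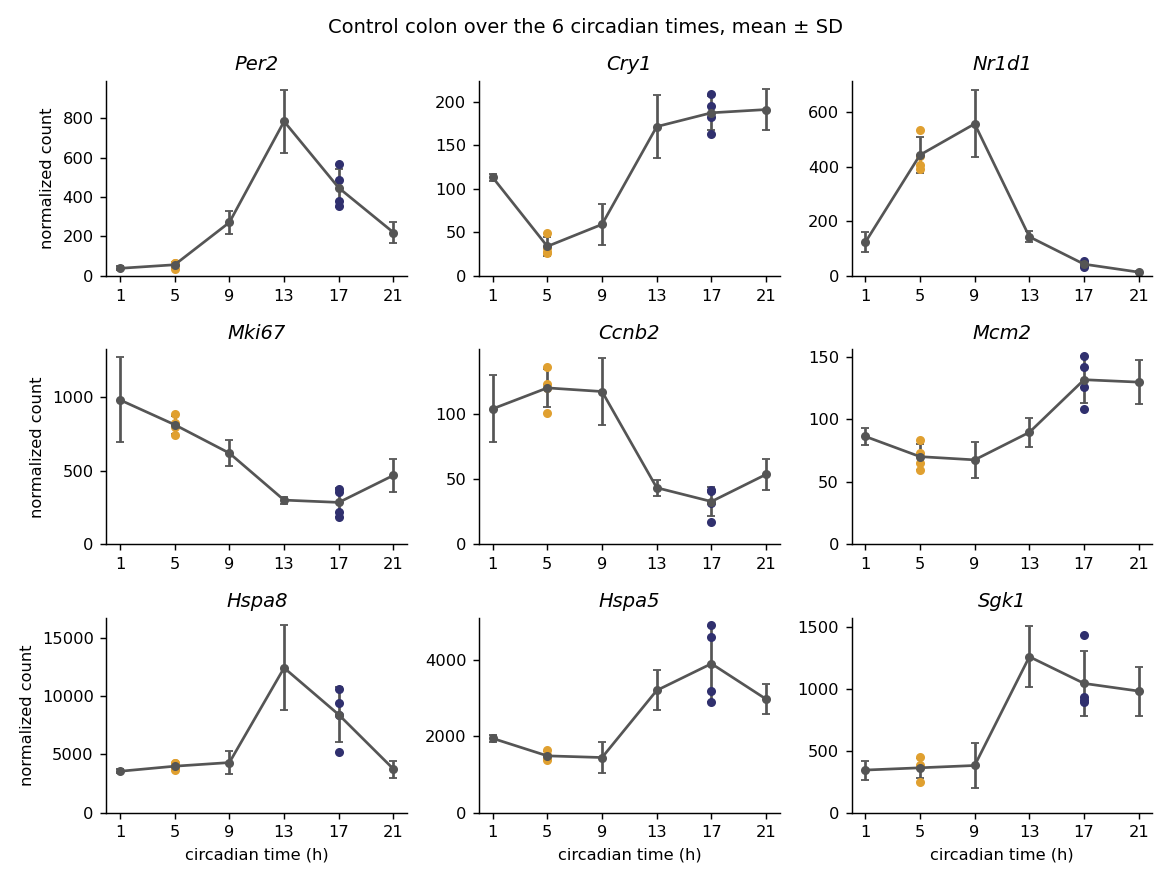
Normalized counts of 9 genes in control colon over the 6 circadian times (x axis, hours), as the mean ± SD of 4 mice in grey, with the single mice at CT5 in orange and at CT17 in dark blue. Per2 and Hspa8 peak at CT13, Hspa5 and Mcm2 at CT17, Cry1 at CT21 and Nr1d1 at CT9, while Mki67 and Ccnb2 are lowest at CT17.

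The same times were compared in mice without epithelial Bmal1. As a check of that genotype, Arntl was at 122, 120.0, 118 and 133 in the 4 Bmal1IEC-/- mice at CT5 and at 122, 132, 119.9 and 106 at CT17, inside or near the control values at these 2 times. Its counts take in every exon and every cell type of the tissue, so that they do not test the deletion at these times. At CT21, when the control mean was 252, the Bmal1IEC-/- mean was 139 (4 mice each).

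From CT5 to CT17, 857 genes (5.69%) passed the same thresholds in Bmal1IEC-/- mice, 318 higher (2.11%) and 539 lower (3.58%). Of the 497 genes higher in control, 176 were also called higher there (35.4% of the control calls and 55.3% of the Bmal1IEC-/- calls), and of the 718 lower genes 312 (43.5% and 57.9%), and no gene was called in opposite directions. A call in one genotype and not in the other does not show a difference. The difference itself (the control change minus the Bmal1IEC-/- change, an interaction term in edgeR over all genes) passed an adjusted p of 0.05 for 12 genes, or 0.0796%. Of the 15073 genes tested, 598 had an unadjusted p under 0.05. This is no more than that threshold passes where no gene differs, so the count does not show further differences.

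Clock genes were among the 12. Cry1 was at 268, 224, 289.6 and 238 in the Bmal1IEC-/- mice at CT5 and at 299.7, 265, 299 and 287 at CT17, with a log2 change of 0.17 ± 0.14 (difference from control 2.29 ± 0.23, adjusted p = 4.14e-09), so that the day values of these mice lay above those of all 8 control mice. Per2 still rose in these mice, from 143, 150.0, 143 and 155 to 405, 407, 467 and 305 (log2 change 1.42 ± 0.19, adjusted p = 3.84e-06), by less than in control (difference 1.55 ± 0.29, adjusted p = 0.00655). Nfil3 had a log2 change of 0.09 ± 0.16 and a difference of 1.301 ± 0.25 (adjusted p = 0.0146).

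Lingo4 rose in control on few reads, 7 in all CT5 mice and 51 in all CT17 mice, and its difference was 3.06 ± 0.56 (adjusted p = 0.00655). Whether reads from a neighbouring gene were counted for it was not tested. The metabolic genes Ces1d (difference 1.51 ± 0.19, adjusted p = 4.13e-06), Cyp4b1 (1.59 ± 0.32, adjusted p = 0.0176) and the peroxisomal thiolase Acaa1b (1.52 ± 0.31, adjusted p = 0.0187) were higher at night in control and had log2 changes of -0.51, -0.50 and -0.61 in Bmal1IEC-/- mice. Acaa1b shares part of its locus with Dlec1 on the other strand, whose log2 change in control was 1.44.

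Car2, a carbonic anhydrase (difference 0.55 ± 0.10, adjusted p = 0.00655), the efflux pump gene Abcb1a (0.77 ± 0.16, adjusted p = 0.0339) and Sord, sorbitol dehydrogenase (0.52 ± 0.11, adjusted p = 0.0444), were not called in control; their log2 changes in Bmal1IEC-/- mice were -0.39, -1.02 and -0.36. The non-coding 9030625G05Rik, also of the 12, had 33 reads in all control mice at CT5 and 4 at CT17 (difference -3.47 ± 0.70, adjusted p = 0.0184). Cry1, Ces1d and Car2 passed this test whichever of the 8 control mice was left out. Of the 12, 8 missed it at least once, and without SV447 only 4 genes passed in all.

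For the large groups no difference between genotypes passed the test in any member. Of all genes tested, 2.11% were called higher and 3.58% lower in Bmal1IEC-/- mice, and the list counts below stand beside these shares. All 24 mitosis genes were also called lower in Bmal1IEC-/- mice, with a median log2 change of -1.13, and Mki67 had a difference of -0.41 ± 0.31 (adjusted p = 1). Of the heat shock list 15 were higher and 1 was lower there, with a median of 0.64, and of the ER list 11 were higher, with a median of 0.44; Hsph1 had a difference of 0.26 ± 0.48 and Hspa5 one of 0.08 ± 0.29. Nr1d1 fell in both genotypes, with a log2 change of -3.35 ± 0.25 in control and -3.40 ± 0.30 in Bmal1IEC-/- mice (difference 0.05 ± 0.38), and Dbp and Nr1d2 had differences of 0.49 ± 0.39 and 0.54 ± 0.24. None of the 7 tested activator and loop genes of the clock was called in Bmal1IEC-/- mice, beside 5.69% of all genes tested. With so few genes this count alone shows no difference from control. In the test of the difference itself, 3 of the 7 passed.

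**Figure D5:**
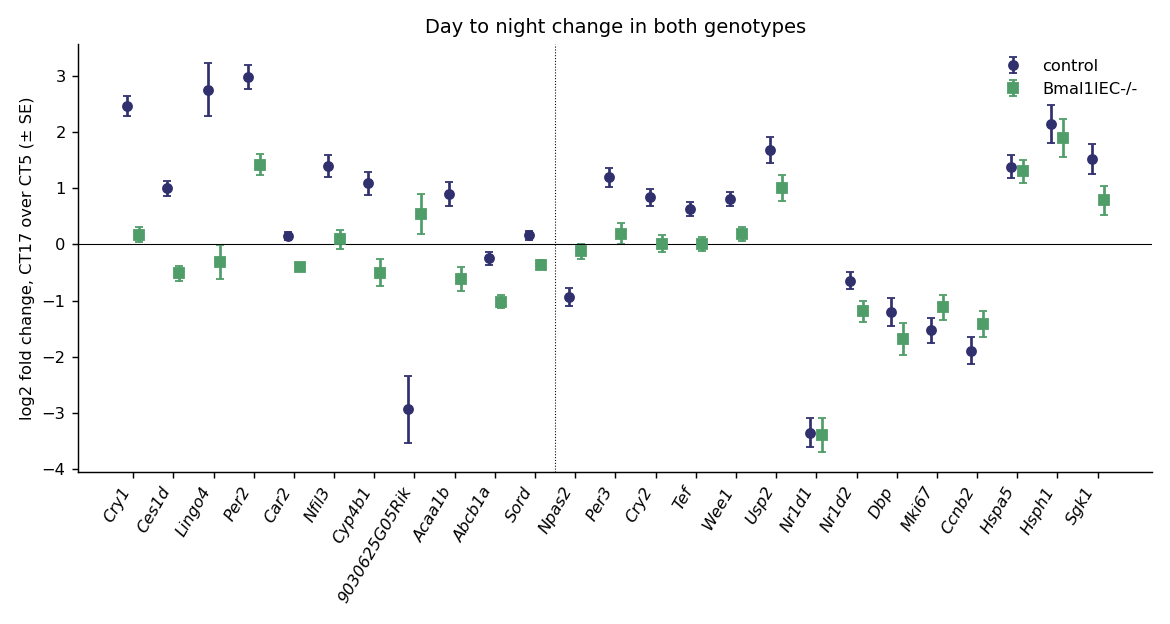
Log2 fold change of CT17 over CT5 (y axis, ± SE, 4 mice per time) in control (circles) and Bmal1IEC-/- mice (squares). Left of the dotted line stand 11 genes whose change differed between genotypes, among them Cry1 with a difference of 2.29, and to the right further clock, mitosis, chaperone and salt transport genes, in which the difference did not pass the test.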

How the data were processed

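Whole colon RNA of 48 mice was sequenced (TruSeq Stranded mRNA, paired reads). The authors aligned reads to mm10 with STAR 2.7.5c and counted exonic reads with featureCounts 1.4.6. They left out reads that overlapped several features, were chimeric or fell under a limit of mapping quality. The strand setting and the annotation release are not given in the sources used here. The table they deposited holds raw counts, 1 whole number per gene and mouse. Of 55401 identifiers, 55141 were found in GENCODE vM21, which gave symbols and GRCm38 positions.

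Counts were fitted in edgeR 4.0.16 (TMM, filterByExpr, quasi-likelihood F test) with 1 coefficient per genotype and time over 46 mice, all but the Bmal1IEC-/- mice SV384 and SV385 at CT1, left out as in an earlier analysis of these data. A gene was called at an adjusted p under 0.05 and a fold change over 1.5, the thresholds of the study. Standard errors are the log2 change divided by the square root of F. To show levels, each count was divided by the size factor of its mouse (DESeq2 1.42.0, 46 mice). Alternatives were DESeq2, limma-voom (limma 3.58.1), other size factors, filters, sample sets, thresholds and leaving out each mouse. The fit was also run on simulated counts with known changes, and how many of these it found is not given here.

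The text names the members of both clock lists, the 10 genes of smallest p called in each direction, up to 4 of smallest p in each other list and the 5 of smallest p for the genotype difference (no Gm or Rik symbols); some of these are not reported here. Other genes are members of a list that a sentence counts, or were chosen after their values were seen. The comparison and the lists were chosen with earlier results of these data known. Replicates are separate mice. A gene with 0 counts in a group could have up to 3, which covers counting error only.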

Additional observations from a re-analysis of the deposited data

Results flagged for a closer look

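In groups of 4 mice, 11 of the 330 sets of values checked (165 genes at CT5 and at CT17) held 1 mouse whose gap to the next, as a share of the whole range, was above Dixon's 95% critical value; chance alone gives about 1 in 20. In the CT17 mouse SV398, Sgk1 was at 1432 (next 936.1), Nr1d2 at 341.4 (next 305.2), Pigr at 11680, Hspb1 at 155.6 and Klf4, the low one, at 681. In SV453 Per1 was at 86.06 (next 192.5). In SV417 Ddit3 was at 31.91 and Cyp2s1 at 522.3. At CT5, Egr1 in SV446 was at 253.8 (next 52.65), Rpl10a in SV446 at 1170 and Atf4 in SV443 at 626.7.

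The change from CT5 to CT17 differed between control and Bmal1IEC-/- mice, by the test of the difference itself in edgeR, in 12 genes, of which 11 are given. On the log2 scale, control minus Bmal1IEC-/-, the difference was 2.294 for Cry1, 1.554 for Per2 and 1.301 for Nfil3 of the clock. It was 1.514 for Ces1d, 1.593 for Cyp4b1, 1.515 for Acaa1b, 0.7744 for Abcb1a, 0.5454 for Car2 and 0.5165 for Sord. For Lingo4 it was 3.064 and for 9030625G05Rik -3.472.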

How the results depend on the processing

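Of the 165 genes followed across the alternatives, 99 of them called, none reversed a called direction. With DESeq2, limma-voom, DESeq2 size factors in edgeR, no filter on low counts, the 24 control mice, the CT17 and CT5 mice alone or all 48 mice, the counts of higher and lower genes kept within 1.5 times those reported, and the genotype difference passed for 8 to 18 genes in those of these settings not named below. The thresholds moved the counts most: a test against a fold of 1.5 itself (edgeR's glmTreat) left 39 higher (0.259% of genes tested) and 105 lower genes (0.697%), a fold above 2 left 139 (0.922%) and 298 (1.98%), and an adjusted p under 0.01 left 324 (2.15%) and 450 (2.99%). Leaving out 1 mouse gave 2.31 to 3.74% higher and 3.13 to 5.47% lower genes, the low ends without the CT17 mouse SV398 and the high ends without SV417; the cause was not tested. The genotype difference passed for 158 genes (0.487%) when all genes with a count were tested, for 7 (0.0501%) with the CT17 and CT5 mice alone, for 6 (0.0398%) at an adjusted p under 0.01, and for 4 to 17 (0.0266 to 0.113%) without 1 mouse, the 4 without SV447 and the 17 without SV398. Of 165 genes followed, 130 stayed on their side of the thresholds whichever mouse was left out, 24 lost their call at least once and 11 gained one. No paired analysis was possible because each mouse has a number of its own and no number is shared between the times. At 3562816 to 4439845 counts per mouse, calls on genes of a few reads, such as Scnn1g, could be lost with 1 mouse.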

Other observations

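The largest folds belonged to antibody genes, which were no part of the lists. Of the 63 genes called with a fold above 4, 15 were immunoglobulin gene segments, 10 of them lower and 5 higher at CT17, and in none of the 15 did the mice of the 2 times separate, against 40 of the other 48 genes. In 14 of the 15, 1 mouse held most of the normalized counts of all 8 mice. Ighv2-4 was at 68.8 in the CT5 mouse SV446 and at 0 in the other 7 mice, Igkv3-5 at 699 in SV446 and at 3.04, 7.46 and 18.5 in the other CT5 mice, and Ighv8-5 at 368 in the CT17 mouse SV417 and at 0 in the other 3 CT17 mice. No other of the 171 immunoglobulin segments tested was called, so that the 15 calls were a share near the 8.06% of all genes tested.

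Some other genes with a fold above 4 and no overlap, chosen after their values were seen, lie outside the lists. Nupr1, a small nuclear stress protein, was at 2236, 2141, 3019 and 2427 in the CT5 mice and at 440.3, 749, 354.9 and 477.7 in the CT17 mice (log2 change -2.29 ± 0.30, adjusted p = 7.37e-07), and its log2 change in Bmal1IEC-/- mice was -1.76. Col8a1, a short-chain collagen of basement membranes, was at 198, 110.0, 141 and 186 by day and at 35.7, 21.3, 33.1 and 17.7 by night (log2 change -2.53 ± 0.32, adjusted p = 4.55e-07). Muc6, a gel-forming mucin best known from the stomach, was at 21.3, 15.9, 8.60 and 7.79 by day and at 61.3, 45.7, 41.0 and 146 by night (log2 change 2.42 ± 0.53, adjusted p = 0.00114). Ankrd37 fell (log2 change -2.18 ± 0.54, adjusted p = 0.004), and Mpp2 rose (2.19 ± 0.32, adjusted p = 6.32e-06).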
